A study of Mus musculus with 4 samples.

Results

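The genes described here carry or store zinc, magnesium, copper and iron. They were selected by symbol in the gene lists of the deposited files: every gene whose symbol starts with Slc30a, Slc39a, Slc41a, Slc31a, Slc11a or Cnnm, together with Slc40a1, Trpm6, Trpm7, Atp7a, Atp7b, Tfrc, Trf, Fth1 and Ftl1, if listed for both cells and nuclei. This gave 44 of the 27336 gene symbols in both lists, and 38 of the 44 had at least 30 unique molecular identifiers (UMIs, each counting 1 captured mRNA molecule) over the 4 libraries. The 38 comprised 19 zinc, 8 magnesium, 4 copper and 7 iron genes. The other 6 members fell short: Cnnm1 had 20 UMIs, Slc39a2 17, Slc30a3 6, Slc39a4 3, Slc39a5 1 and Slc30a8 0.

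RNA was sequenced from single cells and single nuclei of the SV (stria vascularis), the epithelium of the lateral cochlear wall, in CBA/J mice at postnatal day 30. There were 3 captures of whole cells and 1 capture of nuclei, each a suspension pooled from several mice, so that p-values measure the spread between pools and not between animals. After filtering, the cell captures held 377, 1314 and 1461 barcodes and the nucleus capture 9723. The total UMI counts as deposited were 2811309, 8113494, 8340882 and 22332501, and the median per barcode lay between 1561 in nuclei and 5054 in capture 1. Between 0 and 6 barcodes were shared by a pair of cell captures, and between 7 and 32 by a cell capture and the nuclei.

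Metal ions cross membranes through dedicated proteins. The SLC30 (ZnT) proteins move zinc out of the cytosol and the SLC39 (ZIP) proteins move it in. SLC41 and CNNM proteins and the channel kinases TRPM6 and TRPM7 handle magnesium, CTR1 (Slc31a1) and the ATPases ATP7A and ATP7B handle copper, and iron enters as transferrin through its receptor, is stored in ferritin and leaves through ferroportin (Slc40a1). In the SV, marginal cells secrete potassium into the endolymph, intermediate cells are melanocyte-derived and make melanin with the copper enzyme tyrosinase, basal cells seal the tissue from the spiral ligament, and spindle and root cells lie at its edges.

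Cells were assigned to types by clustering, with the members and related pathway genes kept out of the genes used to cluster. The cell captures gave 135 marginal, 975 intermediate, 112 basal and 31 spindle/root cells, whereas 1657 cells could not be named. The spindle/root cells joined a cluster of 19, with Epyc and Ceacam16 among its top genes, and a cluster of 12, with P2rx2 and Anxa1. The cluster of 12 had marginal as its second class. Spindle/root values therefore average over both clusters. The nuclei gave 2587 marginal, 1475 intermediate, 648 basal and 205 spindle/root nuclei, and 3856 nuclei could not be named. Mitochondrial genes held a median of 56.7% of the UMIs in unnamed cells and 50.1% in unnamed nuclei. In named cells the medians were 26.8% in marginal, 32.7% in intermediate, 23.3% in basal and 11.3% in spindle/root cells. In the nuclei of these types they were 1.73% to 4.87%. Mitochondrial UMIs are part of every CPM total. In cells, the summed level of 7 marginal markers was 6635 to 7188 UMIs per 1000000 UMIs of the sum (CPM) in the marginal sums and at most 1363 CPM in the sums of the 3 other SV types. The 7 basal markers reached 3524 to 4207 CPM in basal sums and at most 1693 CPM in the other SV types, and the 7 spindle/root markers 6530 to 9387 CPM and at most 485 CPM in the other SV types. Outside these types, basal markers reached 2806 to 2906 CPM in fibrocytes, and spindle/root markers 1985 CPM in neutrophils, from 1 of the 7 markers. The 9 intermediate markers, of which Pmel was at 0 in all 4 types, were at 21650 to 29542 CPM in intermediate, 6090 to 9978 CPM in marginal, 8500 to 11848 CPM in basal and 688 to 2914 CPM in spindle/root sums. The part of this intermediate-marker RNA in the results was not tested, other than by leaving out the marginal and the basal cluster that held the most of it. In nuclei the marginal markers were at 7290 CPM in marginal, 2076 CPM in basal, 1381 CPM in spindle/root and 682 CPM in intermediate nuclei. The intermediate markers were at 35569, 5195, 2563 and 1531 CPM in intermediate, basal, spindle/root and marginal nuclei. The basal markers were at 1488, 639, 274 and 165 CPM in basal, spindle/root, marginal and intermediate nuclei. In basal nuclei they thus summed to less than the marginal and the intermediate markers. The spindle/root markers were at 4983 CPM in spindle/root nuclei and at most 256 CPM in the nuclei of the other SV types. The part of RNA from other types in the nuclear levels of the members was not tested. The 6 erythroid markers ranged from 147 to 2053 CPM over the sums of all 4 types.

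For each member, UMIs were summed per type and capture, and edgeR's quasi-likelihood test set each type against the average of the 3 others, with the capture as a block. Capture 1 held only 4 spindle/root cells and gave no spindle/root sum, so that 11 sums entered and spindle/root values rest on 2 captures. Of the 38 members, 25 passed the filter on low counts and were tested. A gene could pass this filter through 1 type where it was high. Among others, Trf passed through its basal sums, and the pathway genes Nipal1 and Steap2 through their marginal sums. The calls of such genes are not independent of the filter. Trf kept its basal and marginal calls with no filter. A member was called at a Benjamini-Hochberg adjusted p under 0.05 over all 7214 genes tested. The nuclei are 1 library, so they carry no test, and their CPM values are given with exact Poisson 95% intervals, which cover counting error only.

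In marginal cells, 7 of the 25 tested members were higher and 4 lower than in the other types. Over all genes tested, 15.6% were called higher in marginal cells and 10.3% lower. In intermediate cells 7 members were higher and 5 lower, against 17.8% and 17.5% of all genes. In basal cells 4 were higher and 3 lower, against 14.7% and 9.88% of all genes, and in spindle/root cells 1 was higher and 3 lower, against 11.9% and 8.18%. These shares of all genes are also the background for the counts per metal and per pathway list below, where they are not repeated. Those lists are small, and no excess over the background is read from their counts. The median log2 fold change of the 25 members was 0.36 in marginal, 0.27 in intermediate, 0.01 in basal and -0.65 in spindle/root cells, and that of all genes 0.05, 0.02, 0.02 and -0.08. The calls fell on 17 members, and 8 tested members were called in no type. The share of all genes called in at least 1 type was not counted, so no comparison is drawn from these numbers. Without capture 2, 3 members were called in basal cells, and without capture 3, 4 were called in basal and 1 in spindle/root cells.

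**Figure D1:**
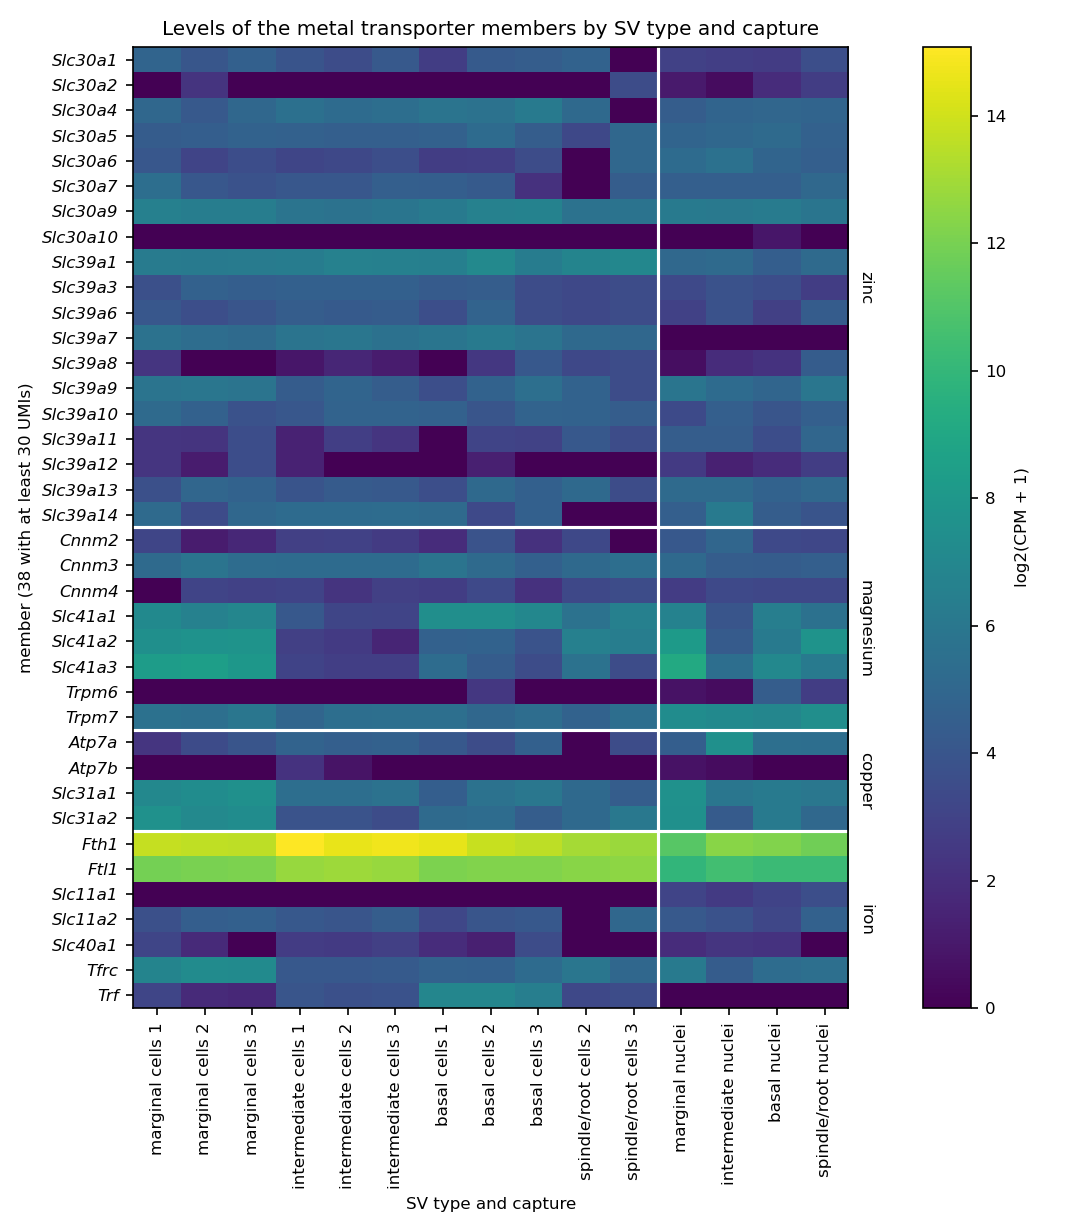
Levels of the 38 members, as log2(CPM + 1) in colour, in the 11 sums of cells (columns left of the vertical line, named by type and capture) and in the nuclei of the 4 types (right). Rows are grouped by metal, and the 3 Slc41a genes are dark in intermediate cells and bright in marginal cells.

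**Figure D2:**
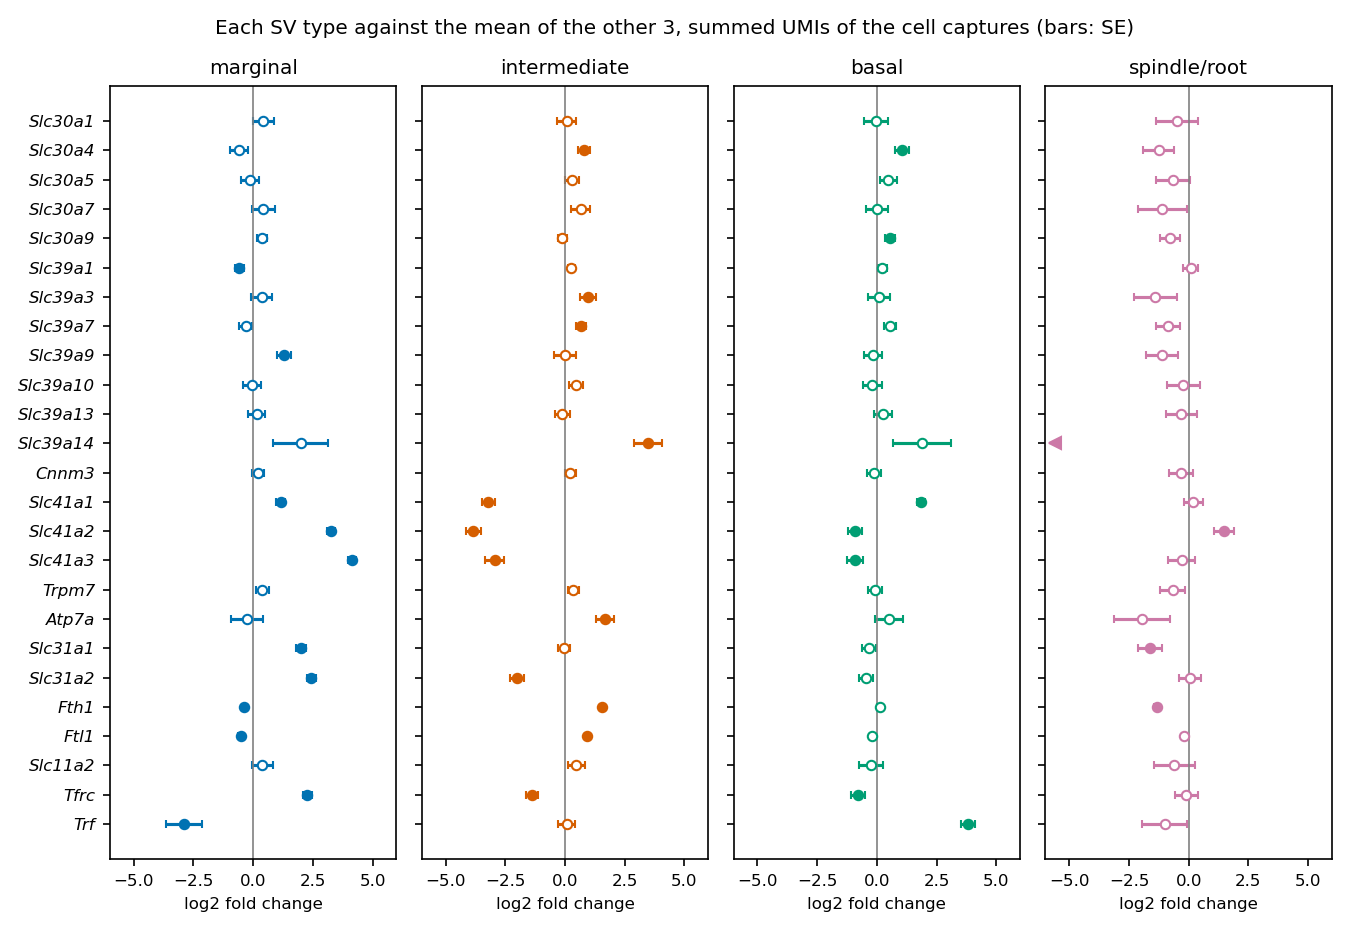
Log2 fold change of the 25 tested members in each type against the mean of the other 3 (x axis), with bars for the standard error. Filled circles are called at an adjusted p under 0.05, open circles are not, and the triangle for Slc39a14 in spindle/root cells marks a value that lies outside the axis because no UMI was counted there. Slc41a3, Slc41a2, Slc31a2, Tfrc and Slc31a1 lie right of 2 in the marginal panel.

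Among the magnesium genes, all 3 of the SLC41 family were higher in marginal cells and lower in intermediate cells. Of the 5 magnesium members tested, 3 were higher in marginal cells and 0 lower, and 3 were lower in intermediate cells and 0 higher. Their median log2 fold change was 1.16 in marginal and -2.95 in intermediate cells.

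Slc41a3 (chromosome 6, 90604725 to 90646412, mm10) encodes a magnesium transporter of the mitochondrion. Its level was 328, 357 and 254 CPM in the marginal cells of captures 1, 2 and 3. It was 7.07, 5.96 and 5.98 CPM in intermediate cells, 38.8, 19.5 and 10.2 CPM in basal cells and 51.4 and 10.6 CPM in spindle/root cells. Every marginal sum lay above every other sum. The intermediate sums lay below all others, of which the spindle/root sum of 10.6 CPM was 1 UMI. The log2 fold change in marginal cells was 4.14 ± 0.17 (SE; edgeR quasi-likelihood test, Benjamini-Hochberg adjusted p = 4.8e-37), and it was -2.95 ± 0.38 in intermediate cells (edgeR, adjusted p = 3.6e-10), or -2.36 without capture 2. In nuclei the level was 574 CPM in marginal (95% interval 552 to 597), 132 CPM in basal, 70.0 CPM in spindle/root and 42.3 CPM in intermediate nuclei (34.6 to 51.2). Fibrocytes of the cell captures held 0 UMIs of it and erythroid cells 2.

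Slc41a2 (chromosome 10, 83230848 to 83337882), a magnesium transporter of the plasma membrane, followed a similar order with a second high type. Marginal cells had 182, 209 and 217 CPM and spindle/root cells 94.3 and 84.7 CPM, whereas basal cells had 25.0, 25.6 and 13.7 CPM and intermediate cells 6.18, 4.91 and 1.99 CPM. The ranges of the 4 types did not overlap. On the log2 scale marginal cells differed by 3.27 ± 0.18 (edgeR, adjusted p = 6.8e-29), spindle/root cells by 1.48 ± 0.41 (edgeR, adjusted p = 0.0046) and intermediate cells by -3.84 ± 0.30 (edgeR, adjusted p = 9.9e-20). The spindle/root call was lost without capture 2 and without capture 3. Nuclei gave 298 CPM in marginal (282 to 315), 213 CPM in spindle/root (168 to 266), 70.8 CPM in basal and 19.2 CPM in intermediate cells, the same order as in cells. Reissner's membrane nuclei held 227 CPM (155 to 321, 32 UMIs).

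Slc41a1 (chromosome 1, 131827493 to 131848865), the sodium-dependent magnesium exporter, was high in 2 types. Basal cells had 172, 177 and 123 CPM and marginal cells 142, 99.5 and 118 CPM, so these overlapped. Spindle/root cells had 51.4 and 95.2 CPM, and intermediate cells 16.8, 7.71 and 7.58 CPM, below every other sum. Basal cells had a log2 fold change of 1.85 ± 0.18 (edgeR, adjusted p = 1.3e-14), marginal cells of 1.16 ± 0.19 (edgeR, adjusted p = 4.6e-07) and intermediate cells of -3.21 ± 0.28 (edgeR, adjusted p = 1.7e-17). In nuclei the marginal level of 102 CPM (92.3 to 111) and the basal level of 86.2 CPM (69.7 to 105) had overlapping intervals, and intermediate nuclei had 14.8 CPM (10.4 to 20.4). Fibrocytes held 123 CPM of it (87.8 to 167, 40 UMIs).

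Basal cells were also called lower for Slc41a2, with a log2 fold change of -0.92 ± 0.31 (edgeR, adjusted p = 0.020), and for Slc41a3, with -0.91 ± 0.35 (edgeR, adjusted p = 0.044). Basal sums of both genes lay above the intermediate and below the marginal sums. The calls were lost in 6 and 9 of 16 other analyses, among them DESeq2 and the fits without capture 2 and without capture 3.

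The RefSeq promoters of the SLC41 genes are printed because the 3 genes moved together between marginal and intermediate cells. Each runs from 250 bases before to 50 after a RefSeq start in GRCm38.p6, on the strand of the gene. The RefSeq starts lay 35 bases from a GENCODE transcript start for Slc41a1, 65 for Slc41a2 and 99 for Slc41a3. The printed stretches of Slc41a1 and Slc41a3 lie inside the genes, which begin at 131827493 and 90604725. Sequence before those gene starts is not shown. Capitals mark matches, on either strand, to TGCACNC or TGCGCNC, the core of the metal response element, and to CACGTG or CATGTG, the E-box forms read by the melanocyte factor MITF. In Slc41a3 the first E-box form and the metal response element overlap.
Slc41a1, chr1:131827762-131828061, + strand: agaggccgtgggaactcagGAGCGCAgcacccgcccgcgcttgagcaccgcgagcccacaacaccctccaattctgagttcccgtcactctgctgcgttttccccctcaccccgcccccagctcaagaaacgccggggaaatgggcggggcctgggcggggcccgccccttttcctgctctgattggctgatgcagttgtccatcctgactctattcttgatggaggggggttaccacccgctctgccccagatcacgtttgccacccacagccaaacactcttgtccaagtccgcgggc
Slc41a2, chr10:83337768-83338067, - strand: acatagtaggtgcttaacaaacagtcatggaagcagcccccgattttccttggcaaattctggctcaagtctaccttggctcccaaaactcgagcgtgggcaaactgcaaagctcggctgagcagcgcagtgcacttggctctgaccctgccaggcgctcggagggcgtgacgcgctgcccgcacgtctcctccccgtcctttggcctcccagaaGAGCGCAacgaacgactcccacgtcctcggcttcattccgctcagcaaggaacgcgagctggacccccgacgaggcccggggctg
Slc41a3, chr6:90618996-90619295, + strand: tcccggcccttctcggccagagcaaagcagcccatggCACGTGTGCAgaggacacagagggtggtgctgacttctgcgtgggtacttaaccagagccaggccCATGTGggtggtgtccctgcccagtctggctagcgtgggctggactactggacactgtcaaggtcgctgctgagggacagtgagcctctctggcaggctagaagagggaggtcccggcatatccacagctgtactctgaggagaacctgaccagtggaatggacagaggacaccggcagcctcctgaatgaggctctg

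Each printed SLC41 promoter held 1 match to the metal response element. Of the 3 printed, only that of Slc41a3, at a start inside the gene, held E-box forms, at 2 places. Of the 33 described members with a promoter in the table, 18 had a match to the metal response element in at least 1 promoter and 9 a match to the E-box forms. Counted by promoter, 19 of their 38 promoters held the first motif and 9 the second. Over all 32851 promoters of this length, 25.7% held the first and 20.4% the second. The sequence AAGGTCA, read by oestrogen-related receptors such as the marginal-cell factor ESRRB, was found in 4 of the 38 promoters, those of Atp7b, Cnnm3, Slc11a1 and Slc31a2, and in 4.72% of all promoters. A match is a run of letters and was not tested for binding.

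**Figure D3:**
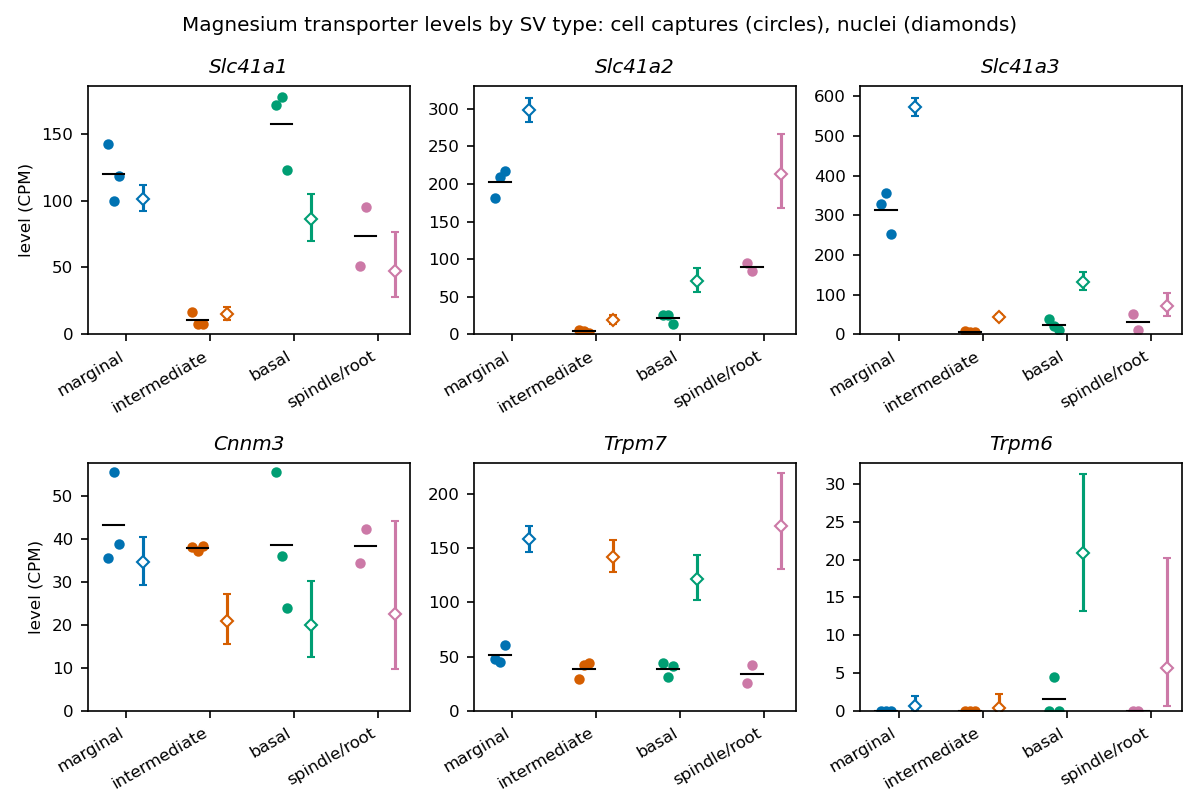
Levels (y axis, CPM) of 6 magnesium genes in the 4 SV types (x axis). Circles are the cell captures with their mean as a line, and diamonds are the nuclei with exact Poisson 95% intervals. For Slc41a1, Slc41a2 and Slc41a3 the intermediate cells and nuclei are the lowest of the 4 types. Trpm6 is highest in basal nuclei, with an interval that overlaps that of spindle/root nuclei.

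The other magnesium genes were called in no type or did not pass the filter. Trpm7, a channel with a kinase domain, had mean levels of 51.0 ± 8.06 CPM in marginal, 38.6 ± 8.24 in intermediate, 39.0 ± 6.62 in basal (SD, n = 3 captures) and 34.0 ± 11.8 CPM in spindle/root cells (SD, n = 2), and it was called in no type, although the lowest marginal sum, 45.4 CPM, lay just above the highest of the others, 44.4 CPM. In nuclei it was at 122 to 171 CPM in the 4 types. Cnnm3 was at means of 37.8 to 43.2 CPM and was called in no type either. Cnnm2 and Cnnm4 did not pass the filter, with 58 and 56 UMIs over the 4 types in cells. Nuclei held 30.7 CPM of Cnnm2 in intermediate cells (24.3 to 38.4, 77 UMIs) against 17.1 CPM in marginal cells (13.5 to 21.5), so these intervals did not overlap. In cells the means were 6.01 ± 0.754 and 3.77 ± 3.61 CPM (SD, n = 3 captures), which was not tested. Trpm6, the epithelial partner of Trpm7, had 3 UMIs in the 4 types of cells, all in basal cells of capture 2. In nuclei it had 23 UMIs in basal cells, or 20.9 CPM (13.2 to 31.3), against 3 in marginal, 1 in intermediate and 2 in spindle/root nuclei. The spindle/root level was 5.60 CPM, and its interval overlapped the basal one.

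Among the 9 further magnesium genes of the pathway list, 7 were tested. In marginal cells 1 was higher and 1 lower. Nipal1, of the NIPA magnesium transporter family, had 35.6, 42.8 and 62.4 CPM in marginal cells and at most 21.2 CPM in any other sum, with a log2 fold change of 4.25 ± 0.47 (edgeR, adjusted p = 2.0e-12). In intermediate cells it had 0, 0 and 3 UMIs and was called lower (edgeR, adjusted p = 6.3e-04), with 1 higher and 2 lower among the 7. The fitted size of its marginal fold change depends on these low counts. Marginal nuclei held 52.4 CPM of Nipal1 (45.8 to 59.6) and intermediate nuclei 2.40 CPM. Ptp4a2, a phosphatase that binds CNNM proteins, was at 523 and 487 CPM in spindle/root cells and at most 275 CPM in any other sum, a log2 fold change of 1.23 ± 0.18 (edgeR, adjusted p = 6.1e-08). Its nuclear level in spindle/root cells was 392 CPM (330 to 463), against 87.3 to 133 CPM in the other types.

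Copper genes divided between marginal and intermediate cells. Both members of the SLC31 importer family were higher in marginal cells, and the exporter Atp7a was higher in intermediate cells. Of the 3 copper members tested, 2 were higher in marginal and 1 in intermediate cells, and 1 was lower in each of intermediate and spindle/root cells.

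Slc31a1 (CTR1, chromosome 4, 62360727 to 62391769), the high-affinity copper importer, was at 130, 157 and 191 CPM in marginal cells. The other sums ranged from 21.2 to 61.5 CPM, with intermediate cells at 43.3, 42.1 and 50.2 CPM, basal cells at 22.2, 51.1 and 61.5 CPM and spindle/root cells at 34.3 and 21.2 CPM. Marginal sums did not overlap the others and differed by 2.01 ± 0.19 on the log2 scale (edgeR, adjusted p = 4.0e-15). The spindle/root value was called lower, -1.62 ± 0.50 (edgeR, adjusted p = 0.012), although its sums overlapped those of basal cells. This call was lost in 3 of 16 other analyses, among them DESeq2 and the fit without capture 3, and stood at -2.22 without capture 2. The 4 spindle/root cells of capture 1, which gave no sum, held 9 UMIs, which bring the level over all 31 cells to 54.0 CPM. Marginal nuclei were at 195 CPM (182 to 209) and the other types at 60.3 to 69.9 CPM, with intervals that overlapped each other and not the marginal one.

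Slc31a2 (CTR2, chromosome 4, 62262562 to 62298411), its intracellular relative, was at 198, 135 and 161 CPM in marginal cells and at 13.2, 13.7 and 10.4 CPM in intermediate cells. Basal cells had 36.0, 39.1 and 20.5 CPM and spindle/root cells 34.3 and 63.5 CPM. Marginal sums lay above and intermediate sums below all others. Marginal cells differed by 2.43 ± 0.19 on the log2 scale (edgeR, adjusted p = 9.0e-20) and intermediate cells by -2.02 ± 0.29 (edgeR, adjusted p = 5.2e-09). Nuclei had 192 CPM in marginal (179 to 205), 69.0 CPM in basal, 33.6 CPM in spindle/root and 19.2 CPM in intermediate cells (14.1 to 25.4).

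Atp7a (chromosome X, 106027276 to 106124926), which pumps copper into the secretory pathway and, in melanocytes, to tyrosinase, was at 26.5, 22.4 and 24.3 CPM in intermediate cells. Basal cells had 16.6, 10.5 and 23.9 CPM, marginal cells 3.95, 10.1 and 15.1 CPM and spindle/root cells 0 and 1 UMI. Intermediate and basal sums overlapped. Intermediate cells had a log2 fold change of 1.68 ± 0.39 (edgeR, adjusted p = 2.4e-04), against a mean that includes the spindle/root level of 1 UMI. Without capture 3 the spindle/root side is 1 sum at 0 UMIs, and the fitted value, 3.43, depends on that 0. Atp7a was tested in 14 of 16 other analyses. It was not tested without capture 2, nor without the marginal and basal cluster that held the most intermediate-marker RNA. Nuclei held 190 CPM in intermediate cells (173 to 208, 476 UMIs) against 45.4 CPM in basal (33.7 to 59.8) and 21.5 CPM in marginal cells, and with a spindle/root interval of 23.5 to 69.3 CPM. Atp7b, the second copper ATPase, had 6 UMIs in the 4 types of cells, all in intermediate cells of captures 1 and 2, and 4 UMIs in the nuclei of the 4 types.

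The promoters of Atp7a and Slc31a2 are shown as those of the copper genes with opposite patterns, with the same motifs in capitals and, in Slc31a2, the sequence AAGGTCA. The RefSeq starts lay 52 and 20 bases from a GENCODE transcript start. The printed stretch of Slc31a2 lies inside the gene, which begins at 62262562. Sequence before that gene start is not shown. Both hold the metal response element and an E-box form, and the promoter of Slc31a1 held none of these motifs.
Atp7a, chrX:106026974-106027273, + strand: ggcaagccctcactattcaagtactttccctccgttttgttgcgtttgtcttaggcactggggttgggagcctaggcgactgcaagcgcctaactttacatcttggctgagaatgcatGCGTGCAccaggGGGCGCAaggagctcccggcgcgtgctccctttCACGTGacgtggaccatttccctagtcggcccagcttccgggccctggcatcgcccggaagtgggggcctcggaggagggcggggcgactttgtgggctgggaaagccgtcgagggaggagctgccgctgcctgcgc
Slc31a2, chr4:62286179-62286478, + strand: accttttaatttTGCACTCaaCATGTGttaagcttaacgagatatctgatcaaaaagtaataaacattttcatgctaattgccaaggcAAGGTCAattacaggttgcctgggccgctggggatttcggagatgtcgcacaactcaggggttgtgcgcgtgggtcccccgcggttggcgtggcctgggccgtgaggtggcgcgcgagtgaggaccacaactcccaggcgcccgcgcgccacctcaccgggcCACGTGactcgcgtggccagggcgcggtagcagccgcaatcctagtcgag

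Of the 7 copper chaperones and related genes of the pathway list, 5 were tested. In marginal cells 0 were higher and 2 lower, in intermediate and basal cells 0 were higher and 1 lower, and in spindle/root cells 1 was higher and 0 lower. Ccs, which loads copper onto superoxide dismutase, was at 13.2, 13.3 and 15.9 CPM in intermediate cells, with a log2 fold change of -1.08 ± 0.29 (edgeR, adjusted p = 0.0020). Its other sums ranged from 10.6 to 111 CPM, so the groups overlapped.

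Iron genes of uptake, carriage and storage were highest in different types. The transferrin receptor was higher in marginal cells, transferrin in basal cells and both ferritin chains in intermediate cells. Of the 5 iron members tested, 1 was higher and 3 lower in marginal, 2 higher and 1 lower in intermediate, 1 higher and 1 lower in basal, and 0 higher and 1 lower in spindle/root cells.

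Tfrc (chromosome 16, 32608920 to 32632794), the transferrin receptor, was at 111, 152 and 146 CPM in marginal cells and at 16.8, 16.5 and 18.3 CPM in intermediate cells. Basal cells had 25.0, 24.1 and 37.6 CPM and spindle/root cells 60.0 and 31.7 CPM. Marginal sums lay above all others and intermediate sums below all others. Marginal cells had a log2 fold change of 2.26 ± 0.19 (edgeR, adjusted p = 9.8e-18) and intermediate cells of -1.37 ± 0.26 (edgeR, adjusted p = 7.6e-06). The basal value of -0.80 ± 0.30 was also called (edgeR, adjusted p = 0.039) and lost that call in 7 of 16 other analyses, among them DESeq2 and the fits without capture 1 and without capture 2. Marginal nuclei had 73.2 CPM (65.4 to 81.6), basal 39.9 CPM, spindle/root 44.8 CPM (25.6 to 72.8) and intermediate nuclei 20.0 CPM. Erythroid cells, which import iron for haem, had 76.9 CPM (61.3 to 95.2).

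Trf (chromosome 9, 103204001 to 103230444), transferrin itself, was at 122, 120 and 85.4 CPM in basal cells. Intermediate cells had 15.0, 11.9 and 12.8 CPM and spindle/root cells 8.57 and 10.6 CPM, or 1 UMI each. Marginal cells had 7.90, 2.52 and 2.15 CPM, or 2, 2 and 1 UMIs. Basal sums lay above all others. Marginal sums lay below all others, but their order against the spindle/root sums rests on these few UMIs and is not secure. Basal cells had a log2 fold change of 3.82 ± 0.29 (edgeR, adjusted p = 1.1e-20) and marginal cells of -2.88 ± 0.75 (edgeR, adjusted p = 0.0017). The marginal call was lost without capture 2, at a value of -2.62, and at a clustering resolution of 0.4. Outside the SV types, Trf was at 497 CPM in fibrocytes (424 to 580) and 414 CPM in macrophages (332 to 511). The 6 fibrocyte markers summed to 69.3 to 140 CPM in basal, 22.7 to 59.3 CPM in marginal, 26.5 to 29.1 CPM in intermediate and 137 to 222 CPM in spindle/root sums, and the 7 macrophage markers to at most 10.2 CPM in basal sums. The part of these cells in the basal level was not tested.

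Trf had 0 UMIs in the nuclei, against 550 in the cell captures, and Slc39a7 had 1 against 814. The annotation has a second gene on the same strand over each of them. Gm20425 covers 63.5% of the exon bases of Trf and had 0 UMIs in every library, and Gm20427 covers 80.7% of those of Slc39a7 and was listed for nuclei only, also with 0 UMIs. How reads shared by overlapping genes were counted is not given in the sources used here, so that the nuclear values of Trf and Slc39a7 are not read as levels.

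Fth1 (chromosome 19, 9980598 to 9985098), the ferritin heavy chain, was at 34640, 24251 and 27390 CPM in intermediate cells. Basal cells had 23557, 14192 and 12379 CPM, marginal cells 13942, 12735 and 12395 CPM and spindle/root cells 8373 and 7302 CPM. Intermediate sums lay above and spindle/root sums below all others. The log2 fold change was 1.55 ± 0.09 in intermediate (edgeR, adjusted p = 1.0e-25) and -1.31 ± 0.13 in spindle/root cells (edgeR, adjusted p = 2.0e-14). The marginal value of -0.36 ± 0.10 was called too (edgeR, adjusted p = 0.0024), although marginal sums overlapped others, and it was lost in 4 of 16 other analyses, among them the fit without capture 1, and turned to 0.027 at a clustering resolution of 1.2. In nuclei Fth1 was at 5431 CPM in intermediate (5340 to 5523), 4819 CPM in basal, 3639 CPM in spindle/root and 2254 CPM in marginal cells (2210 to 2299), so marginal and not spindle/root was lowest there.

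Ftl1 (chromosome 7, 45457944 to 45459884), the light chain, was at 6784, 7479 and 6821 CPM in intermediate cells, above all other sums. Spindle/root cells had 5348 and 5768 CPM, basal cells 4456, 4873 and 4702 CPM and marginal cells 3837, 4166 and 4423 CPM, below all others. The log2 fold change was 0.91 ± 0.09 in intermediate (edgeR, adjusted p = 1.4e-15) and -0.52 ± 0.09 in marginal cells (edgeR, adjusted p = 3.5e-06). Nuclei gave 1439 CPM in intermediate (1392 to 1486), 1233 CPM in basal, 1230 CPM in spindle/root and 952 CPM in marginal cells (923 to 981). Ftl1 has near-identical copies: Ftl1-ps1 and Ftl1-ps2 were listed for nuclei only, with 150 and 1 UMIs beside 45682 of Ftl1, so that reads of the copies may be counted under Ftl1 in cells.

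The mRNAs of these genes carry iron-responsive elements, hairpins that iron regulatory proteins bind when iron is low, which blocks translation from a 5′ element and stabilises the mRNA through 3′ elements. A search of the GENCODE transcripts of 43 members for a C, 5 paired bases and the loop CAGTGN found them in 4 members, Fth1, Ftl1, Slc40a1 and Tfrc. The search took only an unbroken stem and this loop, so elements of another form would be missed. A member without a match is therefore not shown to lack an element. The elements found are printed below, and their part in the mRNA levels was not tested. Each is 29 bases in mm10, 5′ to 3′, with the loop in capitals.
Fth1, 5′ UTR, chr19:9982732-9982760, + strand: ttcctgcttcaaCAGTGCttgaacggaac
Ftl1, 5′ UTR, chr7:45459779-45459807, - strand: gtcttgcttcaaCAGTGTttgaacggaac
Slc40a1, 5′ UTR, chr1:45925465-45925493, - strand: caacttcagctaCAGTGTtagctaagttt
Tfrc, 3′ UTR, chr16:32631219-32631247, + strand: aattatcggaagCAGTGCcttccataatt
Tfrc, 3′ UTR, chr16:32631598-32631626, + strand: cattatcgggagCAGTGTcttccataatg
Tfrc, 3′ UTR, chr16:32631663-32631691, + strand: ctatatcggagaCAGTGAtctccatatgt
Tfrc, 3′ UTR, chr16:32631710-32631738, + strand: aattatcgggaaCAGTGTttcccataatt

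The element was in 4 of 5 coding transcripts of Fth1, 1 of 2 of Ftl1, 1 of 4 of Slc40a1 and 1 of 3 of Tfrc. The counts are per gene and do not tell these transcripts apart, and they measure mRNA, not translation.

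**Figure D4:**
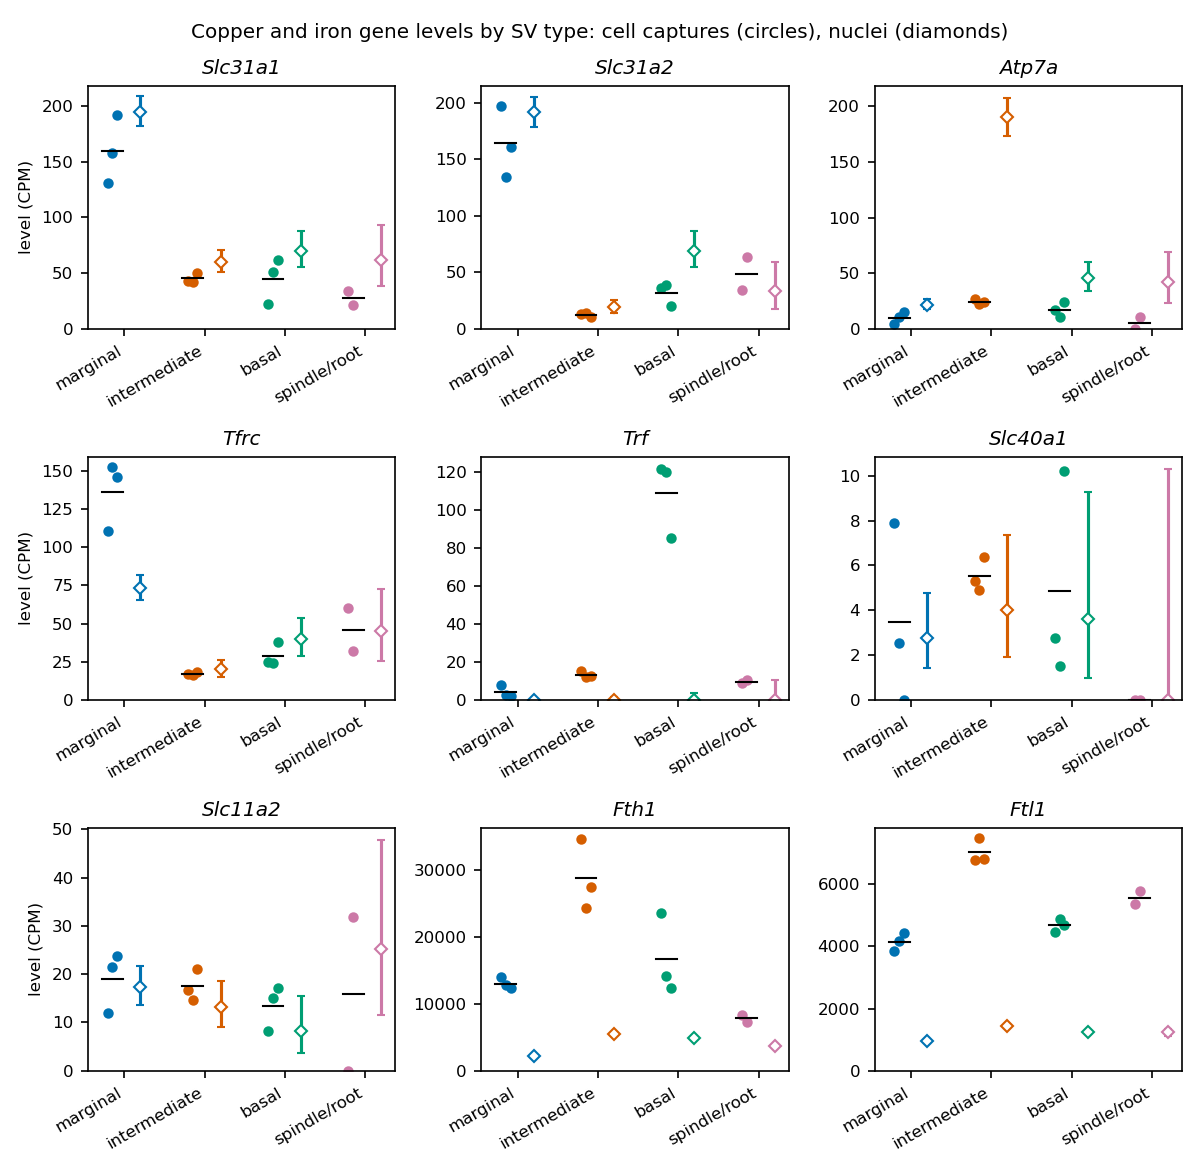
Levels (y axis, CPM, from 0) of 3 copper and 6 iron genes in the 4 SV types (x axis). Circles are the cell captures with their mean as a line, and diamonds the nuclei with exact Poisson 95% intervals. Slc31a1, Slc31a2 and Tfrc are highest in marginal cells and nuclei, Atp7a, Fth1 and Ftl1 in intermediate ones, and Trf in basal cells, while its nuclear values are 0.

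The remaining iron genes were called in no type or did not pass the filter. Slc11a2 (DMT1), the endosomal iron importer, was at means of 13.5 to 19.0 CPM in the 4 types and was called in none. Slc40a1, the only known iron exporter, had 45 UMIs in the 4 types of cells and did not pass the filter. It stood at 105 CPM in macrophages (65.6 to 159, 22 UMIs). Slc11a1, a phagosomal metal transporter, had 0 UMIs in the 4 types of cells and 57 in their nuclei, at 4.79 to 11.2 CPM per type.

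Of the 22 further iron genes of the pathway list, 10 were tested, with 1 higher and 1 lower in marginal, 2 higher and 1 lower in intermediate, 2 higher and 0 lower in basal, and 0 higher and 1 lower in spindle/root cells. Cp, the ferroxidase ceruloplasmin that loads iron onto transferrin, was at 141, 214 and 239 CPM in basal cells, where Trf was also higher. Its highest other sum was 51.4 CPM, and the log2 values were 3.33 ± 0.21 in basal (edgeR, adjusted p = 6.7e-24) and -2.78 ± 0.43 in marginal cells (edgeR, adjusted p = 1.2e-07). Basal nuclei held 445 CPM of Cp (407 to 487) and marginal nuclei 35.4 CPM. Steap2, a metalloreductase that reduces iron and copper, was at 27.7, 51.7 and 53.8 CPM in marginal cells and at most 13.7 CPM in any other sum, a log2 fold change of 3.29 ± 0.43 (edgeR, adjusted p = 8.1e-10), and at 52.8 CPM in marginal nuclei (46.2 to 60.1). Hmox1, which frees iron from haem, was at 24.7, 54.0 and 18.3 CPM in intermediate cells and from 0 to 27.3 CPM in other sums, a log2 fold change of 2.11 ± 0.35 (edgeR, adjusted p = 4.8e-07). The spindle/root sums of Steap2 and of Hmox1 were at 8.57 and 0 CPM, so both fitted fold changes depend on counts near 0. Of the iron chaperones, Pcbp2 was higher in basal cells, 0.59 ± 0.13 (edgeR, adjusted p = 9.8e-05), and lower in intermediate cells. Pcbp1 was lower in spindle/root cells, -1.11 ± 0.29 (edgeR, adjusted p = 0.0025), and higher in intermediate cells.

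Zinc genes were the largest group. Of 12 tested, 1 was higher and 1 lower in marginal cells, 4 were higher and 0 lower in intermediate cells, 2 were higher and 0 lower in basal cells, and 0 were higher and 1 lower in spindle/root cells. Their median log2 fold change was 0.25, 0.39, 0.24 and -0.84 in these types.

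Among the importers, Slc39a14 (ZIP14, chromosome 14, 70303469 to 70351425), which also carries iron and manganese, was at 37.1, 37.5 and 39.5 CPM in intermediate cells. Marginal cells had 35.6, 10.1 and 32.3 CPM, basal cells 36.0, 9.02 and 23.9 CPM and spindle/root cells 0 UMIs. Intermediate sums lay above all others, the closest by about 1 CPM. It was called higher in intermediate cells (edgeR, adjusted p = 1.1e-06) and lower in spindle/root cells (edgeR, adjusted p = 0.016). The fitted fold changes depend on the count of 0 and are not given. With 3 counts as the limit that 0 of the 277994 spindle/root UMIs allows, or 10.8 CPM, the pooled intermediate level of 38.2 CPM was at least 3.54-fold higher. The spindle/root call was lost in 4 of 15 other analyses, among them DESeq2 and the fit without capture 3. Intermediate nuclei held 74.6 CPM (64.3 to 86.2), against 23.1 CPM in marginal, 20.9 CPM in basal and 14.0 CPM (4.55 to 32.7) in spindle/root nuclei.

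Slc39a9 (ZIP9), an importer of the Golgi and plasma membrane, was at 55.3, 60.5 and 55.9 CPM in marginal cells and at most 44.4 CPM in any other sum. Its log2 value was 1.29 ± 0.29 (edgeR, adjusted p = 1.8e-04). In nuclei marginal cells had 57.4 CPM (50.5 to 64.9) and spindle/root cells 58.8 CPM (36.4 to 89.9), so spindle/root nuclei did not share the low level of spindle/root cells, which rested on 4 UMIs. Slc39a1 (ZIP1) was at 75.1, 73.1 and 75.3 CPM in marginal cells, just below the lowest other sum of 78.5 CPM. Its log2 fold change was -0.58 ± 0.19 (edgeR, adjusted p = 0.014), the call was lost in 5 of 16 other analyses, among them DESeq2 and the fits without capture 2 and without capture 3, and in nuclei the marginal level of 32.9 CPM lay between those of basal and intermediate cells at 21.8 and 36.3 CPM.

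Slc39a3 (ZIP3) was at 23.9, 23.5 and 23.9 CPM in intermediate cells, within the range of the other sums from 8.57 to 25.2 CPM. Its log2 fold change of 0.96 ± 0.34 (edgeR, adjusted p = 0.020) was not called in 3 of 14 other analyses, which were DESeq2, no TMM scaling and the fit without capture 3. Slc39a7 (ZIP7), which releases zinc from the endoplasmic reticulum, was at 49.0 to 60.6 CPM in intermediate cells and had a log2 fold change of 0.66 ± 0.20 (edgeR, adjusted p = 0.0062), higher in 2 of 3 captures and not called under DESeq2, with no TMM scaling or without capture 2. Its mean in basal cells was 60.7 ± 7.57 CPM (SD, n = 3 captures), above that of intermediate cells, 54.5 ± 5.83 CPM, but it was not called in basal cells (edgeR, adjusted p = 0.11).

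Among the exporters, Slc30a4 (ZnT4), which loads zinc into vesicles, was at 55.5, 51.1 and 71.7 CPM in basal cells, above all other sums. Intermediate cells had 45.9, 38.2 and 43.1 CPM, marginal cells 31.6, 17.6 and 32.3 CPM and spindle/root cells 4 and 0 UMIs. Basal and intermediate cells were both called higher, at 1.07 ± 0.30 (edgeR, adjusted p = 0.0035) and 0.78 ± 0.26 (edgeR, adjusted p = 0.010). Without capture 3 neither call held, at 0.75 in basal and 0.56 in intermediate cells. Without capture 2 the spindle/root side is 1 sum at 0 UMIs, and the fitted values, 3.24 and 2.89, depend on that 0. The nuclear intervals of basal (21.4 to 43.1 CPM), intermediate (21.4 to 34.9 CPM) and spindle/root cells (13.4 to 51.5 CPM) overlapped. Slc30a9 (ZnT9), a zinc exporter of the mitochondrion, was at 69.3 to 102 CPM in basal, 81.9 to 94.8 CPM in marginal, 50.1 to 58.2 CPM in intermediate and 51.4 to 52.9 CPM in spindle/root cells. Its basal value of 0.55 ± 0.21 (edgeR, adjusted p = 0.044) was higher in 2 of 3 captures and lost its call in 8 of 16 other analyses, among them DESeq2 and the fits without capture 2 and without capture 3.

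**Figure D5:**
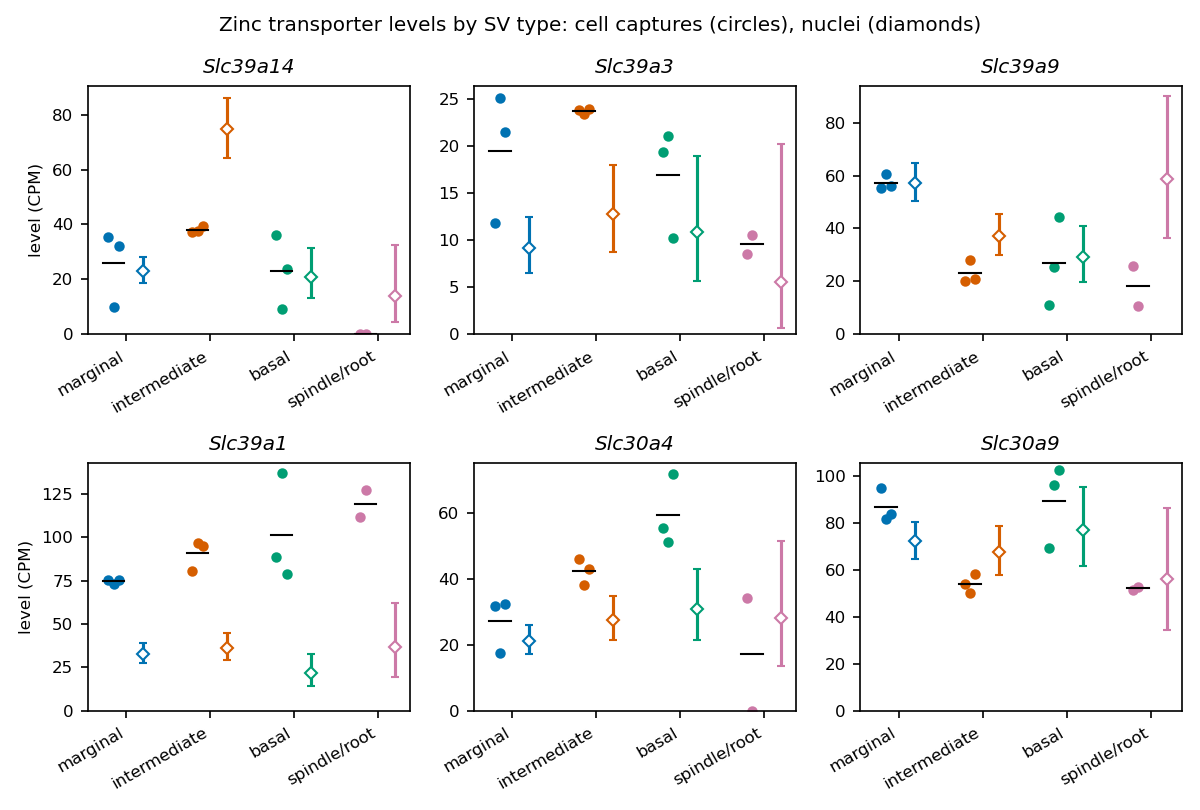
Levels (y axis, CPM, from 0) of 6 zinc genes in the 4 SV types (x axis). Circles are the cell captures with their mean as a line, and diamonds the nuclei with exact Poisson 95% intervals. Slc39a14 is highest in intermediate cells and nuclei. In cells, the marginal sums lie apart from all others for Slc39a9 and Slc39a1, and the basal sums for Slc30a4. No type lies apart from all others for Slc39a3 and Slc30a9.

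The other zinc genes were called in no type or did not pass the filter. Slc30a1, Slc30a5, Slc30a7, Slc39a10 and Slc39a13 were tested and called in no type, at means between 10.6 and 27.7 CPM. A missing call does not show equal levels, and the sums of Slc30a7 ranged from 0 to 43.5 CPM. Slc30a6, Slc39a6 and Slc39a11 did not pass the filter with 89, 175 and 48 UMIs in the 4 types of cells, and Slc30a6 reached 48.3 CPM in intermediate nuclei (40.1 to 57.7). Slc39a8 had 21 UMIs there, Slc39a12 10, Slc30a2 4 and Slc30a10, a manganese exporter, 0. Of 30 Slc39a12 UMIs in the nuclei of the 4 types, 21 were in marginal nuclei, at 4.80 CPM (2.97 to 7.34). Marginal nuclei also held the most UMIs of all genes, and the level in spindle/root nuclei was higher, 5.60 CPM, on fewer Slc39a12 UMIs.

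Zinc is buffered by metallothioneins. Of the 4 zinc pathway genes, Mt1, Mt2 and Mt3 were tested, whereas the transcription factor Mtf1 did not pass the filter. Mt3 was at 2217, 2628 and 2706 CPM in marginal cells and at most 492 CPM in any other sum, a log2 fold change of 2.64 ± 0.10 (edgeR, adjusted p = 8.4e-42). Mt2 was at 337, 147 and 238 CPM in intermediate cells, a log2 fold change of 1.60 ± 0.18 (edgeR, adjusted p = 1.6e-08), although its capture 2 value lay within the marginal range of 98.3 to 191 CPM. Mt1 was higher in marginal cells, 0.86 ± 0.12 (edgeR, adjusted p = 4.4e-07), and in intermediate cells, 1.04 ± 0.12 (edgeR, adjusted p = 1.7e-09), and Mt3 was lower in intermediate cells, -0.85 ± 0.11 (edgeR, adjusted p = 1.7e-10). In basal cells all 3 were lower, Mt1 at -0.44 ± 0.13 (edgeR, adjusted p = 0.012), Mt2 at -1.02 ± 0.27 (edgeR, adjusted p = 0.0056) and Mt3 at -0.61 ± 0.12 (edgeR, adjusted p = 1.3e-05), and in spindle/root cells Mt1 and Mt3 were, -1.46 ± 0.20 (edgeR, adjusted p = 4.2e-07) and -1.17 ± 0.17 (edgeR, adjusted p = 2.1e-08). Mt3 in marginal nuclei was at 856 CPM (829 to 884), above basal nuclei at 642 CPM (596 to 691).

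The nuclei were set beside the 34 calls of the cells. For 31 of them the gene had UMIs in the nuclei of the 4 types, and in 30 of the 31 the nuclei of the called type lay on the same side of the mean of the 3 other types. Over all called genes with nuclear UMIs, this held for 85.8% of 7497 calls. The exception among the members was Slc39a1 in marginal cells. In 12 of the 31 the nuclear interval of the called type lay outside those of all 3 other types: 6 in marginal cells (Slc41a3, Slc41a2, Slc31a1, Slc31a2, Ftl1 and Fth1), 6 in intermediate cells (Slc41a1, Slc41a2, Atp7a, Slc39a14, Ftl1 and Fth1), and 0 in basal and spindle/root cells. Over all called genes the share was 30.5% in marginal, 28.2% in intermediate, 13.1% in basal and 18.3% in spindle/root cells. The type with the highest level was the same in cells and nuclei for 16 of the 23 tested members with nuclear UMIs, and for 54.4% of all 7065 such genes.

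Leaving out 1 basal and 1 marginal cluster that held the most intermediate-cell RNA, a comparison added after the data were seen, left 16 members in the test. It gave 10 calls in marginal, 9 in intermediate, 7 in basal and 3 in spindle/root cells, of which 10, 9, 6 and 3 were among the calls above. The share of all genes called in that fit is not given, so no excess among the members is read from these counts. Atp7a, Slc39a3 and Slc39a14, called above, were not tested there. The basal values of Slc41a3, Slc41a2 and Tfrc were then -2.72, -2.16 and -1.92, each with a basal sum at 0 UMIs, Slc41a3 and Slc41a2 in marginal cells were at 4.88 and 3.91, and the 3 marginal sums held 0 UMIs of Trf, so that no fold is given for it. Scaled to library totals without TMM, the median of all genes moved by -0.34 in intermediate and 0.26 in spindle/root cells. All genes then split into 699 higher and 2298 lower in intermediate cells, against 1284 and 1264 with TMM, and into 1165 and 339 in spindle/root cells, against 861 and 590. The members' calls became 4 higher and 5 lower in intermediate cells, without Slc30a4, Slc39a3 and Slc39a7, and none of the 34 values changed sign.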

How the data were processed

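Single cells and single nuclei of P30 mouse SV were captured with the 10x Genomics Chromium 3′ v2 chemistry. The deposited matrices hold raw UMI counts per gene and barcode, which the authors made with Cell Ranger 2.0.0 on mm10 at default settings, per capture and before aggregation. The annotation release and the handling of strand and of overlapping genes are not given in the sources used here. The cell list holds 27998 genes and the nucleus list 48816.

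A barcode was kept if it held 200 genes or more. Doublets were scored with Scrublet in scanpy 1.11.5, and 0.8% per 1000 barcodes were removed. Clustering used Seurat 5.3.0 at a resolution of 0.8 with 37 (cells) and 43 (nuclei) principal components. Clusters were named where at least 3 of a class's markers were raised, from 90 markers of 15 classes. The naming rule was revised after clusters were seen and before any test, so that only classes with at least 3 raised markers compete for a name. Types may therefore differ from those of the study.

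UMIs were summed per type and capture with at least 5 cells and fitted in edgeR 4.0.16 (TMM, filterByExpr, robust quasi-likelihood fit, capture as block) with Benjamini-Hochberg adjustment. Each SE was derived from the test, as the absolute log2 fold change divided by the square root of its F statistic. The sums of a capture come from 1 suspension, which pairs them. Over 2598 genes, deviations from the type means correlated between -0.055 and 0.313 in 15 pairs of sums from the same capture. The fit was tested on simulated data with changes in marginal sums. It recovered 67 of 100 2-fold and 100 of 100 4-fold changes, with 2 false calls over 6381 genes. The simulation used 1 fixed dispersion and no capture effect, and it changed no gene of low count. It therefore does not cover members near 0 UMIs.

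The members, the 42 pathway genes and the markers were chosen with earlier results of these data known. Values per capture are given for called members with 1 direction in all their captures, up to 6 per type and direction, up to 4 called pathway genes being named per type. Positions and transcripts come from GENCODE vM21 (mm10) and promoters from RefSeq (GRCm38.p6). The alternatives were DESeq2 1.42.0, DESeq2 size factors, no TMM scaling, mitochondrial genes left out, no filter, no block, each capture left out, at least 10 cells per sum, no doublet removal, resolutions of 0.4 and 1.2, 20 components, and members allowed to cluster.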

Additional observations from a re-analysis of the deposited data

Results flagged for a closer look

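The ferritin light chain copy Ftl1-ps1, listed for nuclei only and used in no comparison, had 150 UMIs in the nucleus library, above the 3 counts that a count of 0 allows. Of these, 77 were in unnamed nuclei, 19 in erythroid, 13 in marginal and 12 in intermediate nuclei. Groups of 3 captures or fewer were not searched for outlying samples.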

How the results depend on the processing

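The 34 called values were recomputed under 16 alternatives where the gene was tested, which gave 538 values. Of these, 478 kept their direction and their call, 59 lost the call, and 1 changed sign: Fth1 in marginal cells, at 0.027 on the log2 scale at a resolution of 1.2. The count of called members in basal cells fell from 7 to 4 under DESeq2, with no filter on low counts, at a resolution of 1.2 and with the members allowed to cluster. Slc30a9, Slc41a3, Slc41a2 and Tfrc all lost their basal call under DESeq2 and with the members allowed to cluster. The counts of 4 in these analyses therefore include a member not called in the main fit. The count in spindle/root cells fell from 4 to 2 under DESeq2 and with 20 principal components. Leaving out 1 capture gave 9 to 10 calls in marginal, 9 to 12 in intermediate, 3 to 5 in basal and 1 to 4 in spindle/root cells. The lowest basal count was without capture 2 and the lowest spindle/root count without capture 3, when all genes called in spindle/root cells fell from 1451 to 801. Without capture 2 or 3, spindle/root cells are 1 sum, assumed to vary like the others. Without the replicate block, which pairs the sums of a capture, there were 10 calls in marginal, 12 in intermediate, 5 in basal and 4 in spindle/root cells. Apart from the spindle/root cells without capture 3, the calls over all genes in these analyses are not given. The counts therefore show only how the calls of the members moved. Leaving out the 2 clusters with the most intermediate-marker RNA was chosen after seeing the data. The causes were not tested. No paired analysis was possible because of the separate suspensions where nuclei were set beside cells. Spindle/root cells, with 277994 UMIs, limit what the low members can show.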

Other observations

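Some members stood out in cells that no comparison used. Slc30a5, a zinc exporter of the early secretory pathway, was at 87.3 CPM in B cells (95% interval 46.5 to 149, 13 UMIs) and 117 CPM in B-cell nuclei (86.2 to 154), while the 4 SV types had 25.2 to 36.3 CPM in nuclei. Slc40a1, the iron exporter ferroportin, was at 151 CPM in neutrophil nuclei (98.8 to 222, 26 UMIs) and 16.6 CPM in erythroid nuclei (12.0 to 22.2, 44 UMIs), against at most 3.99 CPM in the nuclei of the 4 SV types. Erythroid nuclei also held 22 UMIs of Slc30a10, against 1 in the nuclei of the 4 SV types, and 23 of Atp7b, against 4. Erythroid nuclei had a median of 5277 UMIs and SV nuclei of 1393 to 1530.5. All these groups come from 1 nucleus library, and no test was made.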
